A study of Homo sapiens with 8 samples.

Results

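The AML1-ETO list deposited for U937 cells after 48 h of induction held 104677 called peaks on chromosomes 1 to 22, and 678 of them were domains of 8 kb or wider. These 678 very broad domains are described here. They were selected on their width in the AML1-ETO 48 h peak list alone, from the start to the end of each peak as deposited, so their width, rank and enrichment in that list are descriptions of the selection. What the rule did not use are the peaks called in the other 3 lists, the genes, and the sequence under the domains. Peaks just under the limit included 7984 bp at RALGDS and 7982 bp near SLC25A33. The narrowest members were 8021 bp at TMCC2, 8025 bp at SLC19A1 and 8026 bp at SERTAD1, and ETO2-GLIS2 48 h peaks covered 11.5% to 51.5% of the 5 peaks just outside the limit and 18.2% to 59.0% of the 5 just inside.

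The study compared 2 leukaemic fusion proteins in U937, an established human monocytic cell line. Retroviral lines that express N-terminally HA-tagged AML1-ETO or ETO2-GLIS2 were treated with 5 µg/ml doxycycline for 12 or 48 h, and chromatin was precipitated with anti-HA beads. Each fusion protein is represented by a single selected clone, and both were expressed from an inducible vector in cells that keep their own RUNX1. There was 1 ChIP library and 1 input per fusion protein and time, 8 libraries in all, and without replicates no contrast of conditions was tested. Intervals below are exact 95% Clopper-Pearson intervals on shares of domains, or order-statistic intervals on medians, and cover counting error only. The peak lists ran from 28393 peaks for ETO2-GLIS2 at 12 h to 105895 for AML1-ETO at 48 h and the lists themselves hold no read numbers. With 1 library per condition, the fusion protein and the properties of its library cannot be told apart. All counts and backgrounds refer to the lists as deposited, which are longer than the peak totals described for the study, and a stricter selection would change them.

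AML1-ETO carries the Runt domain of RUNX1, which binds DNA at Runt motifs together with CBFB, fused to nearly all of ETO (RUNX1T1), a corepressor that recruits histone deacetylases and also contacts E proteins. ETO2-GLIS2 carries the amino-terminal part of ETO2 (CBFA2T3), a close relative of ETO, fused to the zinc fingers of GLIS2, which bind G-rich sites. The fusions thus share ETO-type domains and differ in the part that reads DNA. Very wide peaks of transcription factors and cofactors in blood cells are known from clusters of enhancers and from highly used promoters of lineage genes.

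Summit windows of some domains are printed as examples, picked for the matches or repeats they hold, and do not measure how often these occur. The windows below are 100 bp of the plus strand of GRCh37 around the summit of a fusion protein in 8 domains, with capitals for matches on either strand to a Runt (TGTGGT or TGCGGT), GLIS core (TGGGGGG), ETS (CCGGAAGT), E-box (CAGCTG), AP-1 (TGACTCA or TGAGTCA) or C/EBP (TTGCNNAA) pattern. RARA and ZFP36L2 are shown with the summits of both fusion proteins, MEF2D and the domain upstream of SPI1 for Runt matches at the AML1-ETO summit, GNAI2 and CEBPA for a GLIS core match at the ETO2-GLIS2 summit, and FAM99A and the domain near SPSB1 for tandem repeats. The domain near SPSB1 was added after its values were seen. The promoter of the MEF2D window is at a start site outside MEF2D. The summit in that window lay 4265 bp upstream of the annotated 5′ end of MEF2D.
RARA, AML1-ETO 48 h summit, promoter, chr17:38478914-38479013: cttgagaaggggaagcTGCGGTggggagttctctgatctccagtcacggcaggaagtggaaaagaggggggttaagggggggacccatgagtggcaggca
RARA, ETO2-GLIS2 48 h summit, intron, chr17:38486577-38486676: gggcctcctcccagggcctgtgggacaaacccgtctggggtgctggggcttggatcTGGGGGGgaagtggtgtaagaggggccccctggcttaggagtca
ZFP36L2, AML1-ETO 48 h summit, intron of THADA, chr2:43437819-43437918: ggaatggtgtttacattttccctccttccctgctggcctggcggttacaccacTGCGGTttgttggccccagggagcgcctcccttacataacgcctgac
ZFP36L2, ETO2-GLIS2 48 h summit, intron of THADA, chr2:43437707-43437806: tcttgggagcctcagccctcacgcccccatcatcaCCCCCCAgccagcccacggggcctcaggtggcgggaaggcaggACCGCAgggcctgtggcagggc
MEF2D, AML1-ETO 48 h summit, promoter, chr1:156474786-156474885: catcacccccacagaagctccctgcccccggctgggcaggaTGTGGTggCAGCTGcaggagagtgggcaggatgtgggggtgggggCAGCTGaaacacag
Upstream of SPI1, AML1-ETO 48 h summit, promoter of SLC39A13-AS1, chr11:47416377-47416476: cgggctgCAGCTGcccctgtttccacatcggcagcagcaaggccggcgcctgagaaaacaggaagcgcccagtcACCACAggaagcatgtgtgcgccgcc
GNAI2, ETO2-GLIS2 48 h summit, intron, chr3:50280447-50280546: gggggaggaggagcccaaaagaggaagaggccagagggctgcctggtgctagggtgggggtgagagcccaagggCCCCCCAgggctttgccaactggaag
CEBPA, ETO2-GLIS2 48 h summit, intergenic, downstream of the gene, chr19:33784598-33784697: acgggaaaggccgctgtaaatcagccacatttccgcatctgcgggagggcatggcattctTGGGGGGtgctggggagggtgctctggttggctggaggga
FAM99A, AML1-ETO 48 h summit, intergenic, chr11:1691848-1691947: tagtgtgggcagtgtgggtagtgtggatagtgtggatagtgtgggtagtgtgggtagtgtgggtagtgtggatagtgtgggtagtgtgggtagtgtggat
Near SPSB1, AML1-ETO 48 h summit, intergenic, chr1:9471193-9471292: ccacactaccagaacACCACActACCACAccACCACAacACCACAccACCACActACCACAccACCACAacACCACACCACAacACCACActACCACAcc

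The domains spanned 7.77 Mb, or 0.270% of chromosomes 1 to 22. Their median width was 10067 bp, with quartiles of 8816 and 12456 bp, and the widest reached 40090 bp. In the AML1-ETO 48 h list their fold enrichment over background at the summit had a median of 38.1 and ran from 6.30 to 189. Width and strength went together in this list, with a median fold enrichment of 3.26 in peaks under 500 bp and 25.3 in those of 4 to 8 kb. The order was not strict: ranked by −log10 q, the domains ran from rank 1 to rank 15327 of 105895 lines, with a median of 1508.5.

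Every domain was already occupied at 12 h. All 678 held at least 1 AML1-ETO 12 h peak (100%, interval 99.5 to 100), against a background of 36.7% over all AML1-ETO 48 h peaks. ETO2-GLIS2 was there too: 673 domains held a 48 h peak (99.3%, 98.3 to 99.8; background 17.7%) and 674 held a 12 h peak (99.4%, 98.5 to 99.8; background 17.1%). Peaks of 4 to 8 kb overlapped the other lists nearly as often, at 99.8%, 93.3% and 92.1% in the same order. Among the 2000 strongest AML1-ETO 48 h peaks by −log10 q, the 1593 under 8 kb did so at 100%, 96.4% and 94.6%. A wide region has more room for an overlap, so the share of bases is the closer measure. AML1-ETO 12 h peaks lay over 73.2% of the domain bases, ETO2-GLIS2 48 h peaks over 42.5% and ETO2-GLIS2 12 h peaks over 34.7%. In the next narrower AML1-ETO 48 h peaks, 2979 peaks of 4 to 8 kb, the same shares were 66.5%, 31.5% and 26.9%, and over all peaks they were 44.4%, 18.6% and 16.1%. With the AML1-ETO 12 h list reduced to as many of its strongest peaks as the shortest list holds, 28393, its cover of the domains was 66.6%.

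**Figure D1:**
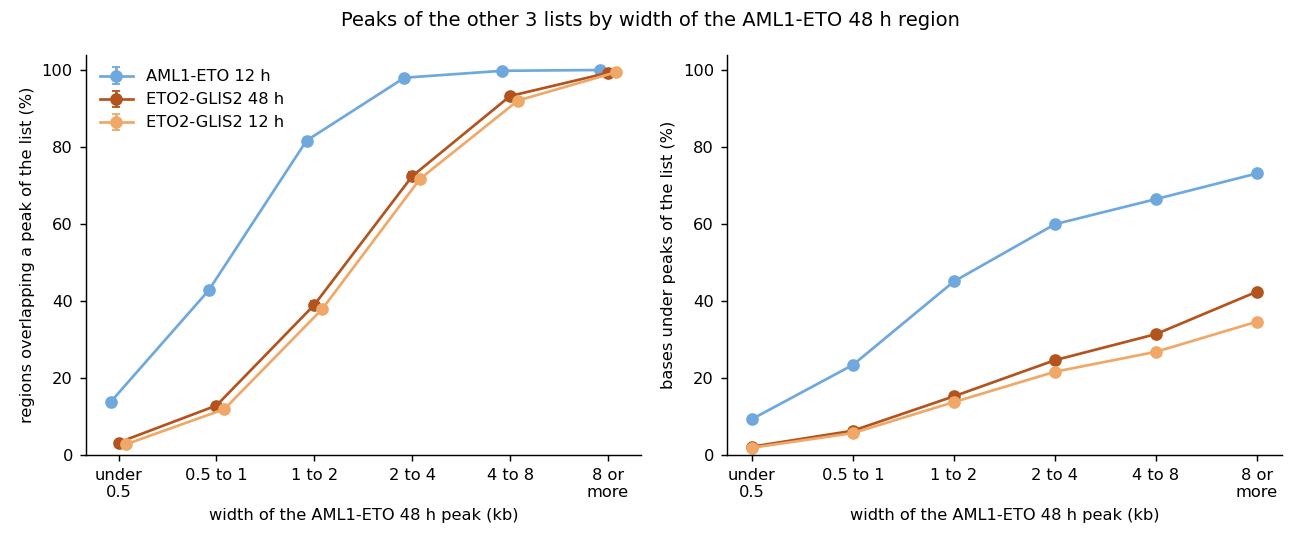
AML1-ETO 48 h peaks on chromosomes 1 to 22 in 6 classes of width in kb (x axis), with the percent of regions that overlap a peak of each other list (left, with 95% Clopper-Pearson intervals mostly smaller than the points) and the percent of their bases under such peaks (right). In the widest class overlap is at or near 100% for all 3 lists, while the bases covered are 73.2%, 42.5% and 34.7%.

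Inside a domain, the other lists were broken into several peaks. A domain held a median of 4 AML1-ETO 12 h peaks (1 to 16), 4 ETO2-GLIS2 48 h peaks (0 to 24) and 3 ETO2-GLIS2 12 h peaks (0 to 21). From 2 to 5 peaks were found in 460 domains for AML1-ETO at 12 h, in 489 for ETO2-GLIS2 at 48 h and in 522 for ETO2-GLIS2 at 12 h, and 6 or more in 186, 146 and 97. The widest AML1-ETO 12 h peak of a domain had a median width of 4770 bp, against 2271 bp for ETO2-GLIS2 at 48 h and 1818 bp at 12 h. Only the AML1-ETO 12 h list often came close to a whole domain, with cover of at least 80% in 225 domains, against 26 and 4 for ETO2-GLIS2 at 48 and 12 h.

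The domains held a small share of each list, a larger but minor share of its strongest peaks, and nearly all of its few widest peaks. They took in 3029 of 70063 AML1-ETO 12 h peaks (4.32%), 2794 of 29784 ETO2-GLIS2 48 h peaks (9.38%) and 2489 of 28019 ETO2-GLIS2 12 h peaks (8.88%). Of the strongest 10% of each list by −log10 q, the shares were 12.0%, 19.98% and 20.6%. Peaks of 8 kb or wider were rare in the other lists and lay almost wholly here: 88 of 90 in the AML1-ETO 12 h list, 16 of 16 for ETO2-GLIS2 at 48 h and 2 of 2 at 12 h. The widest ETO2-GLIS2 48 h peaks were 17913 bp at CSNK1D and SLC16A3, 15308 bp in the 5S ribosomal RNA gene cluster, 15030 bp at LFNG and 12100 bp at ZBTB7B. The 2 very wide ETO2-GLIS2 12 h peaks were 9706 bp at ACTB and 8195 bp at CXXC5.

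Cover by the other lists was highest in the middle of the domains and fell towards both edges. With each domain scaled to the same length, AML1-ETO 12 h peaks lay over 84.4% of bases in the central 20%, 34.99% in the outermost 5% on each side, and 15.7% in the adjoining 1 kb. The same values were 51.4%, 14.5% and 6.25% for ETO2-GLIS2 at 48 h and 42.7%, 9.20% and 2.63% for ETO2-GLIS2 at 12 h. From its first to its last peak inside the domain, the AML1-ETO 12 h list spanned a median of 90.6% of the width, ETO2-GLIS2 48 h 74.1% and ETO2-GLIS2 12 h 68.2%. An AML1-ETO 12 h peak ran across an edge of the domain in 235 domains (34.7%), and an ETO2-GLIS2 48 h peak in 86 (12.7%). The edges were not the end of AML1-ETO binding at 48 h, since other peaks of that list covered 40.9% of the adjoining 1 kb.

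The strongest summits of each fusion protein at 12 and 48 h lay closer together than those of the different fusion proteins. Taking in each domain the summit of highest fold enrichment in each list, the AML1-ETO 48 h and 12 h summits were a median of 22 bp apart (18 to 27), and 498 of 678 pairs lay within 200 bp (73.5%, 70.0 to 76.7). The ETO2-GLIS2 48 h and 12 h summits were a median of 18 bp apart (16 to 20), with 76.6% within 200 bp. Between the fusion proteins at 48 h the median was 248 bp (178 to 371), with 325 of 673 pairs within 200 bp (48.3%, 44.5 to 52.1) and 197 pairs (29.3%) more than 2 kb apart. All 4 summits fell within 200 bp in 230 of 671 domains (34.3%). When any ETO2-GLIS2 48 h summit in the domain was allowed, and not only the strongest, the nearest lay a median of 83 bp from the AML1-ETO 48 h summit (60 to 112).

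Summits of all 4 lists favoured the middle of the domain and fell in the same kinds of place. The central 50% of the domain held 69.2% of AML1-ETO 48 h, 68.3% of AML1-ETO 12 h, 64.0% of ETO2-GLIS2 48 h and 65.9% of ETO2-GLIS2 12 h summits. Promoters, within 1 kb of an annotated start site, held 43.8% (40.03 to 47.6), 41.7%, 42.1% (38.3 to 45.9) and 40.2% of them, and introns 36.9%, 38.6%, 38.0% and 39.0%. The fusion proteins differed in the choice domain by domain: at 48 h both strongest summits were in a promoter in 234 domains, the AML1-ETO summit alone in 61, the ETO2-GLIS2 summit alone in 49, and neither in 329.

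Most domains covered a gene start, but the AML1-ETO summit was often away from it. A promoter was overlapped by 522 domains (77.0%, 73.6 to 80.1), against 67.5% of the 4 to 8 kb peaks and 26.4% of all AML1-ETO 48 h peaks. A start site of a coding gene lay inside 427 domains (63.0%), a start of another transcript inside 81 (11.9%), 90 lay within a coding gene without a start (13.3%), 34 overlapped some other part of a gene and 46 were intergenic (6.78%). The AML1-ETO 48 h summit itself was in a promoter in 43.8% of domains, fewer than the 52.5% (50.7 to 54.3) of 4 to 8 kb peaks. Among the 2000 strongest AML1-ETO 48 h peaks by −log10 q, 46.9% (42.0 to 51.9) of the 407 domains and 74.5% (72.2 to 76.6) of the 1593 narrower peaks had the summit in a promoter. A promoter was overlapped by 80.6% (76.4 to 84.3) of these 407 domains and 82.4% (80.4 to 84.2) of the narrower peaks, so no excess in domains was seen there. A wider region also has more room to overlap one. These values describe the AML1-ETO 48 h list that chose the domains.

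Where a domain covered a start site, it reached further into the gene than upstream. In 211 domains that hold the annotated 5′ end of 1 coding gene, a median of 3227 bp lay upstream and 7069 bp downstream, and 162 were longer downstream (76.8%, 70.5 to 82.3). The AML1-ETO 48 h summit was within 1 kb of that start in 98 of them, over 1 kb downstream in 85 and over 1 kb upstream in 28. ETO2-GLIS2 cover differed with the kind of domain while AML1-ETO 12 h cover hardly did. The median domain with a coding start was covered to 43.6% by ETO2-GLIS2 48 h peaks (quartiles 28.7 and 58.5) and to 75.8% by AML1-ETO 12 h peaks. For domains within a coding gene but without a start the medians were 26.4% (18.0 and 40.1) and 70.8%, and for intergenic domains 29.0% and 71.2%.

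The 678 domains held start sites of 488 named coding genes, and their genes included many regulators of myeloid cells. Over all coding genes of chromosomes 1 to 22, 2.62% (503 of 19222) had a start site in a domain, which is the background for the gene lists below. The lists were put together with earlier results of these data known, so their counts are descriptions. Of 57 myeloid and haematopoietic transcription factors, 12 started in a domain (21.1%): CEBPA, CEBPB, RUNX1, IRF5, GFI1, KLF13, IKZF1, LYL1, MEF2D, BCL6, ZFP36 and ZFP36L2, the last pair being RNA-binding proteins that speed the decay of messenger RNA. Of 40 signalling feedback and cytokine genes there were 11 (27.5%), and of 22 AP-1 and immediate early factors 5 (22.7%). Monocyte and granulocyte genes contributed 9 of 52 (17.3%), E proteins, ID proteins and the ETO family 3 of 20 (15%), and cell cycle and survival genes 2 of 20 (10%). Ribosomal protein genes, which are expressed in every cell, had 2 of 80 (2.5%), close to the background, and replication-dependent histone genes 0 of 64. The lists also differed in how often a start lay under any AML1-ETO 48 h peak, at 56.1% for all coding genes, 89.5% for the transcription factors, 95% for ribosomal protein genes and 45.3% for histone genes.

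Domains at transcription factor genes were covered by ETO2-GLIS2 to very different degrees. In each gene list the widest domains were named by rule, and LYL1, BCL6, IKZF1, CEBPB, RUNX1, FOS, DUSP1, CCR1 and S100A8 were added after their values were seen. The widest of the transcription factor list, at ZFP36L2, had 91.2% AML1-ETO 12 h cover and 63.0% ETO2-GLIS2 48 h cover. The domain with starts of ZFP36 and PLEKHG2 had 73.4% and 59.9% over 13625 bp. At LYL1, which encodes a basic helix-loop-helix partner of E proteins, a single AML1-ETO 12 h peak covered 100% of the 10975 bp domain, and 4 ETO2-GLIS2 48 h peaks covered 83.6%. At MEF2D, a MADS-box factor, the domain of 18695 bp (chr1:156457247-156475941) was covered to 92.2% by 4 AML1-ETO 12 h peaks and to 49.8% by 6 ETO2-GLIS2 48 h peaks. At BCL6, a zinc-finger repressor, AML1-ETO 12 h cover was 92.6% but ETO2-GLIS2 48 h cover only 7.49%. IKZF1 (17.1% ETO2-GLIS2 48 h cover), GFI1 (53.5%) and CEBPB (38.5%) lay between these.

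At the genes of 2 central myeloid regulators, AML1-ETO domains held several narrower ETO2-GLIS2 peaks. SPI1, which encodes PU.1, had no domain at its own start but 1 of 10496 bp upstream (chr11:47408409-47418904), in a stretch known for an upstream enhancer of the gene. There 2 AML1-ETO 12 h peaks covered 85.5%, 3 ETO2-GLIS2 48 h peaks 71.7% and 4 ETO2-GLIS2 12 h peaks 73.9%. The AML1-ETO 48 h summit was 16329 bp upstream of the SPI1 start and the strongest ETO2-GLIS2 48 h summit 535 bp further, at 16864 bp. CEBPA, a master factor of granulocytes, lay at an edge of a domain of 12478 bp (chr19:33781727-33794204), with 69.4% AML1-ETO 12 h and 60.3% ETO2-GLIS2 48 h cover. Here the strongest summits parted: AML1-ETO 48 h peaked 72 bp upstream of the gene's start, and ETO2-GLIS2 48 h 8792 bp downstream of it, beyond the 3′ end of this short gene. The second ETO2-GLIS2 48 h peak by fold enrichment, 59.9 against 93.1 for the strongest, had its summit 232 bp from the AML1-ETO 48 h one. AML1-ETO was also called at the downstream site at 12 h, with a fold enrichment of 13.1 against 13.7 for its strongest peak there. That summit was 8872 bp from the AML1-ETO 48 h summit, and the strongest ETO2-GLIS2 48 h summit 8864 bp.

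RUNX1, the gene whose product supplies the DNA-binding part of AML1-ETO, held 3 domains of 10323, 8880 and 8594 bp. Their AML1-ETO 12 h cover was 82.5%, 89.9% and 86.3%, and their ETO2-GLIS2 48 h cover 16.7%, 25.2% and 46.7%. ID1 and ID2, inhibitors of E proteins, had domains of 15318 and 8651 bp, with 30.1% and 66.9%.

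Signalling genes followed, led by SMAD3, a transducer of TGF-beta, with 3 domains. The first, of 21310 bp, was covered to 92.4% by AML1-ETO 12 h peaks and to 32.8% by 13 ETO2-GLIS2 48 h peaks. The second, of 14162 bp, was covered to 34.7% and 1.60%, and the third, of 8260 bp, to 78.7% and 18.1%. The inhibitory partner SMAD7 had a domain of 16849 bp with 63.8% and 23.1%. A domain of 14143 bp at MAPKAPK3, upstream of CISH, a feedback inhibitor of cytokine receptors, had 68.6% and 42.7%. It did not overlap CISH, and both 48 h summits lay 8858 bp upstream of the CISH start. At PIM3, a serine/threonine kinase, the order was reversed, with 68.8% AML1-ETO 12 h and 76.7% ETO2-GLIS2 48 h cover. Such domains were few: ETO2-GLIS2 48 h covered more bases than AML1-ETO 12 h in 39 of 678 (5.75%).

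Domains of the AP-1 and immediate early list were 8525 to 12445 bp wide, and the domain at EGR3 (9590 bp, 71.3% and 29.7% AML1-ETO 12 h and ETO2-GLIS2 48 h cover) lay upstream of that gene without its start. JUNB, a subunit of AP-1, had 1 AML1-ETO 12 h peak over 96.7% of 11099 bp and 83.1% ETO2-GLIS2 48 h cover, in a domain that also held a start of HOOK2. FOSL2 had 67.5% and 45.3%, and FOS had 84.8% and 22.02%; both encode further subunits. The widest domain of this list, 12445 bp with starts of IER2 and STX10, had 77.0% and 61.0%. DUSP1, a phosphatase that turns off MAP kinases, had 81.7% and 46.6% over 8650 bp, with AML1-ETO 48 h and ETO2-GLIS2 48 h summits 1337 and 1365 bp upstream of the annotated 5′ end of the gene.

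Domains at monocyte and granulocyte genes ranged from 0% to 66.4% in ETO2-GLIS2 48 h cover. ITGB2, the common beta chain of leukocyte integrins, had the widest of these domains, 27257 bp (chr21:46325223-46352479), with a 12 h AML1-ETO peak of 20025 bp, 91.6% cover by that list and 65.6% by 13 ETO2-GLIS2 48 h peaks. TYROBP, an adaptor of activating receptors, had 88.3% and 63.7%, and CD68, a lysosomal protein of macrophages, 82.9% and 66.4%. The TYROBP domain also held starts of HCST and NFKBID, and the CD68 domain starts of EIF4A1 and MPDU1. In the latter the AML1-ETO 48 h summit was 5738 bp upstream of the CD68 start. At CCR1, a chemokine receptor, the 9168 bp domain had 88.3% AML1-ETO 12 h cover, no ETO2-GLIS2 48 h peak and 2 ETO2-GLIS2 12 h peaks of 274 and 208 bp. CD48 (93.8% and 12.8%) and S100A8 (93.4% and 7.17%) were also filled by AML1-ETO at 12 h and scarcely by ETO2-GLIS2 at 48 h.

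**Figure D2:**
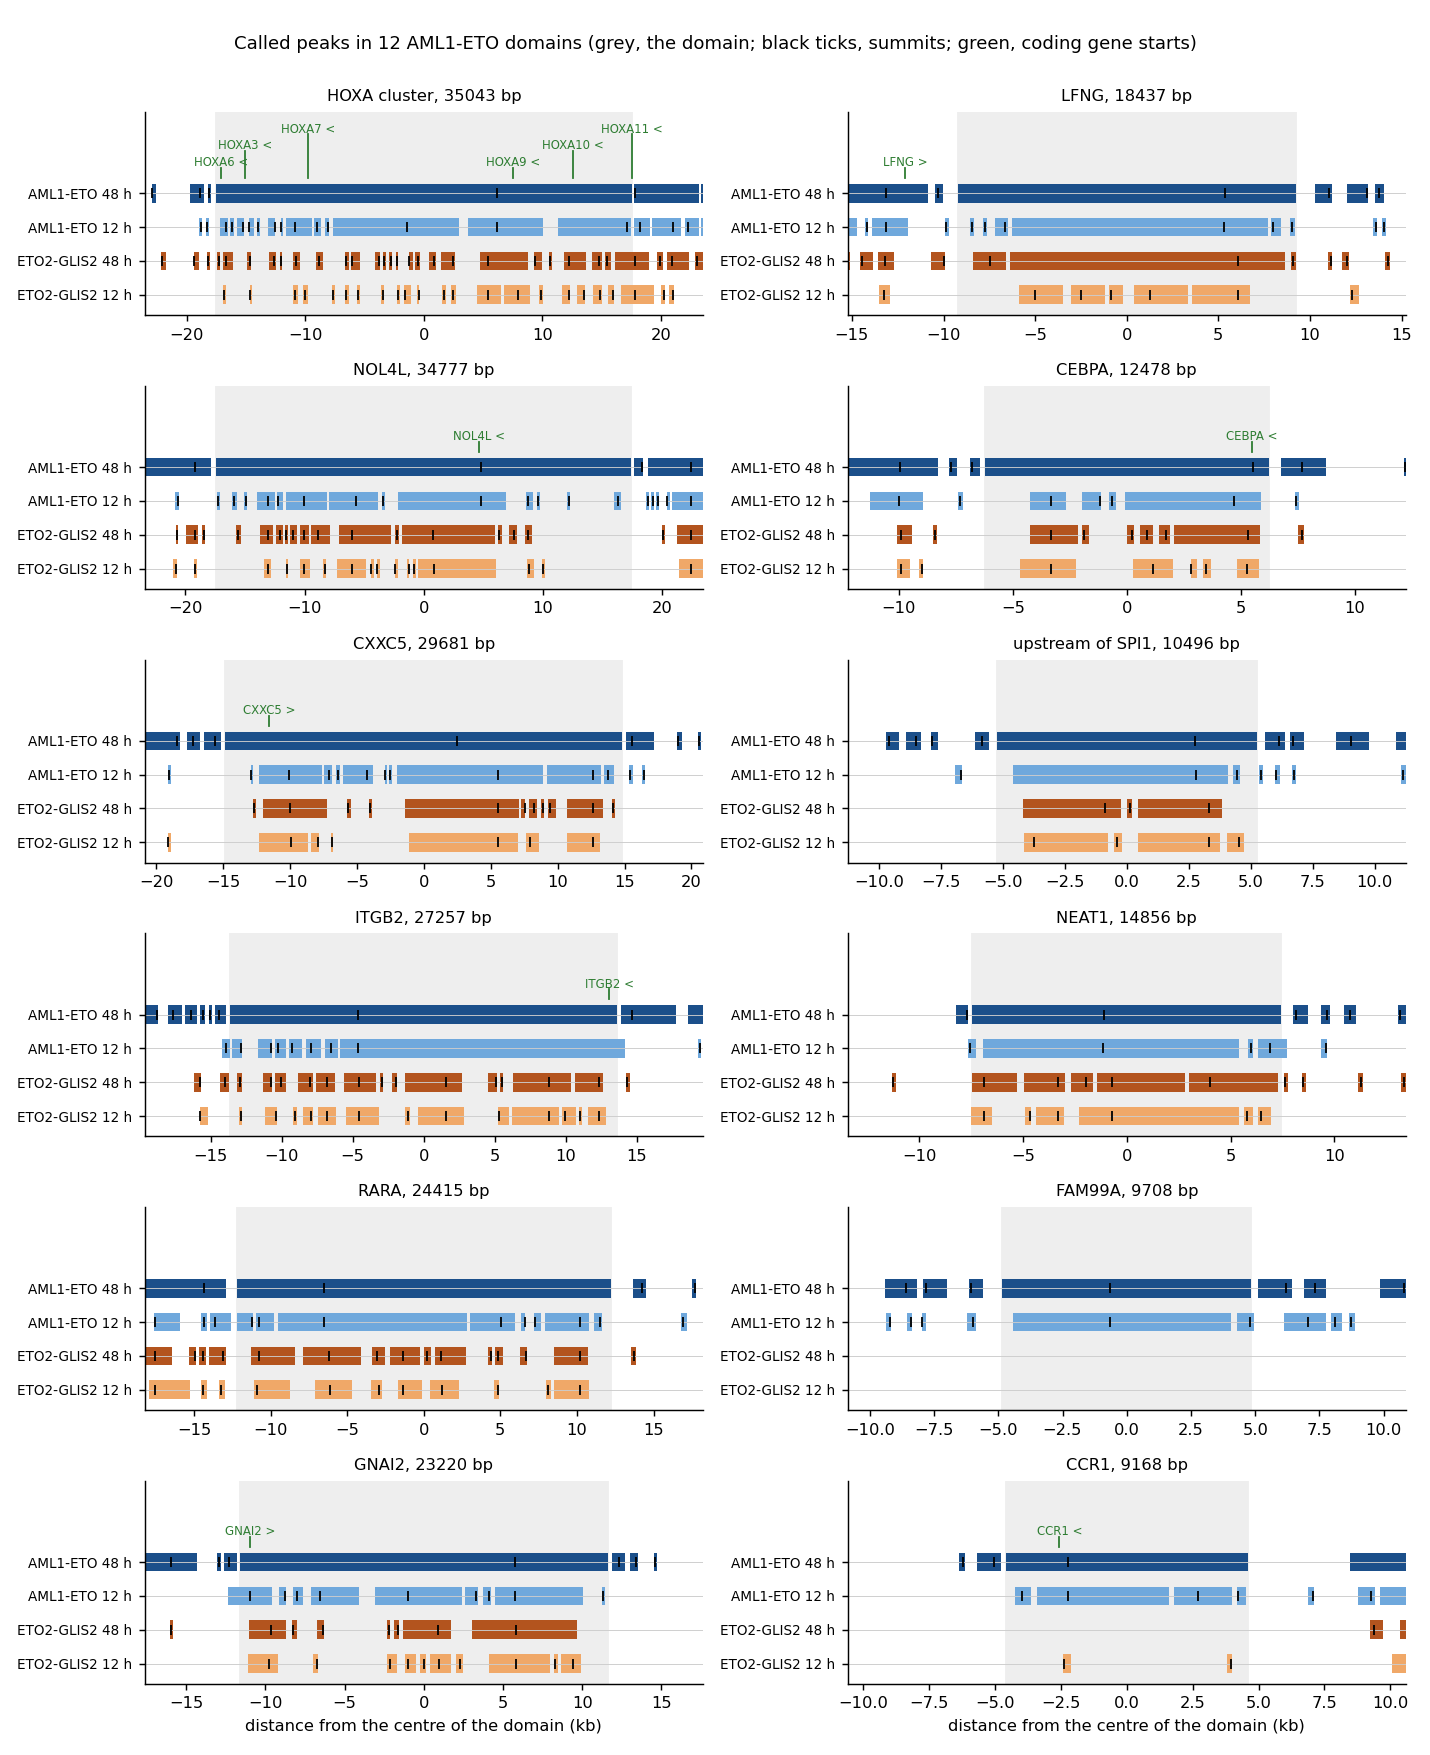
Called peaks of the 4 lists in 12 named domains, by distance from the centre of the domain in kb. Bars are peaks, black ticks summits, grey the domain, and green marks the 5′ ends of coding genes with their direction. AML1-ETO 12 h fills most of each domain, ETO2-GLIS2 is broken into more and shorter peaks at HOXA, and FAM99A has no ETO2-GLIS2 peak while LFNG is covered to 92.5% at 48 h.

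Of the 20 widest domains, 17 held the start of a coding gene. The widest lay at PLEC, which encodes the cytoskeletal linker plectin, with 40090 bp, 14 AML1-ETO 12 h peaks (87.4%) and 18 ETO2-GLIS2 48 h peaks (58.9%). It was followed by a domain of 35414 bp at VSIR and C10orf105 inside CDH23, by 35043 bp over HOXA genes, and by 34777 bp at NOL4L. The next after these were GRK2 with ANKRD13D (30928 bp), CXXC5 (29681 bp), ITGB2 and an intergenic region with UACA as nearest gene (27224 bp). TNFRSF1B, PTP4A3, LSP1 with SYT8 and TNNI2, ZFP36L2, RARA, CSK, SH3TC1 with 2 domains, GNAI2, TTYH3, a cluster of 5S ribosomal RNA genes and a region near RUNX3 made up the rest, at 22364 to 26089 bp. Across these 20, AML1-ETO 12 h cover ran from 44.2% at PTP4A3 to 91.6% at ITGB2, and ETO2-GLIS2 48 h cover from 39.98% near UACA to 97.0% at the 5S genes.

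The third widest domain lay over HOXA genes. It was 35043 bp wide (chr7:27189787-27224829) and held start sites of HOXA3, HOXA6, HOXA7, HOXA9 and HOXA10, homeobox genes that are highly expressed in many myeloid leukaemias. The 13 AML1-ETO 12 h peaks covered 83.4% of it. The 24 ETO2-GLIS2 48 h peaks and 21 ETO2-GLIS2 12 h peaks were the most of any domain for those lists and covered 50.03% and 34.3%. The strongest AML1-ETO 48 h and ETO2-GLIS2 48 h summits were 17012 bp apart, both in promoters. The strongest AML1-ETO 12 h summit was also far from the AML1-ETO 48 h one, at 17052 bp. It lay 1094 bp downstream of the annotated 5′ end of HOXA7, and the ETO2-GLIS2 48 h summit 1054 bp downstream. Of 39 HOX genes these 5 were the ones with a start in a domain.

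RARA and GNAI2 show the summits together and apart. At RARA, the retinoic acid receptor alpha gene, the AML1-ETO 48 h summit was in a promoter with a Runt match, and the strongest ETO2-GLIS2 48 h summit 7663 bp away in an intron with a GLIS core match, as printed above. At GNAI2, an inhibitory G protein subunit, the 2 summits were 39 bp apart, with fold enrichments of 70.3 and 183 in their own lists. At ZFP36L2 they were 112 bp apart, with a Runt match at the AML1-ETO summit and both a Runt and a GLIS core match at the ETO2-GLIS2 summit.

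Highest in ETO2-GLIS2 48 h cover were the 2 domains over 5S ribosomal RNA genes on chromosome 1, at 99.8% (8735 bp, RNA5S1 to RNA5S4) and 97.0% (24695 bp, 10 genes from RNA5S8 to RNA5S17). These genes are near-identical copies, reads can align to any of them, and the handling of such reads is not given in the sources used here, so both values are uncertain. LINC00051 (94.0%), LFNG (92.5%) and NEAT1 (92.1%) came next. LFNG encodes a glycosyltransferase that modifies Notch receptors. There the widest of 3 ETO2-GLIS2 48 h peaks was 15030 bp and the widest of 6 AML1-ETO 12 h peaks 13979 bp, while ETO2-GLIS2 at 12 h was in 5 peaks with 60.4% cover. NEAT1 is an abundant nuclear long noncoding RNA, and its domain of 14856 bp (chr11:65183422-65198277) had 93.4% AML1-ETO 12 h cover.

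At the other end, 5 domains had no ETO2-GLIS2 48 h peak, at CCR1, MARK2, HK3, FAM99A and near MTSS1. HK3, a hexokinase of myeloid cells, and FAM99A had none at 12 h either. The domain overlapping FAM99A, a long noncoding RNA gene, was 9708 bp wide (chr11:1687695-1697402) and held the strongest AML1-ETO 48 h peak of all by −log10 q, with a fold enrichment of 189. In the AML1-ETO 12 h list the wider of 2 peaks, of 8481 bp with a fold enrichment of 182, was likewise the first of its list, and its summit fell on the same base. Most AML1-ETO 12 h peaks were found at TNFRSF1B (16), the wider 5S domain (15), PLEC and KIF21B (14 each), and HOXA and NOL4L (13 each). The lowest AML1-ETO 12 h cover, 12.6%, was at MAN1C1, a mannosidase gene, where ETO2-GLIS2 48 h covered 7.16%.

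**Figure D3:**
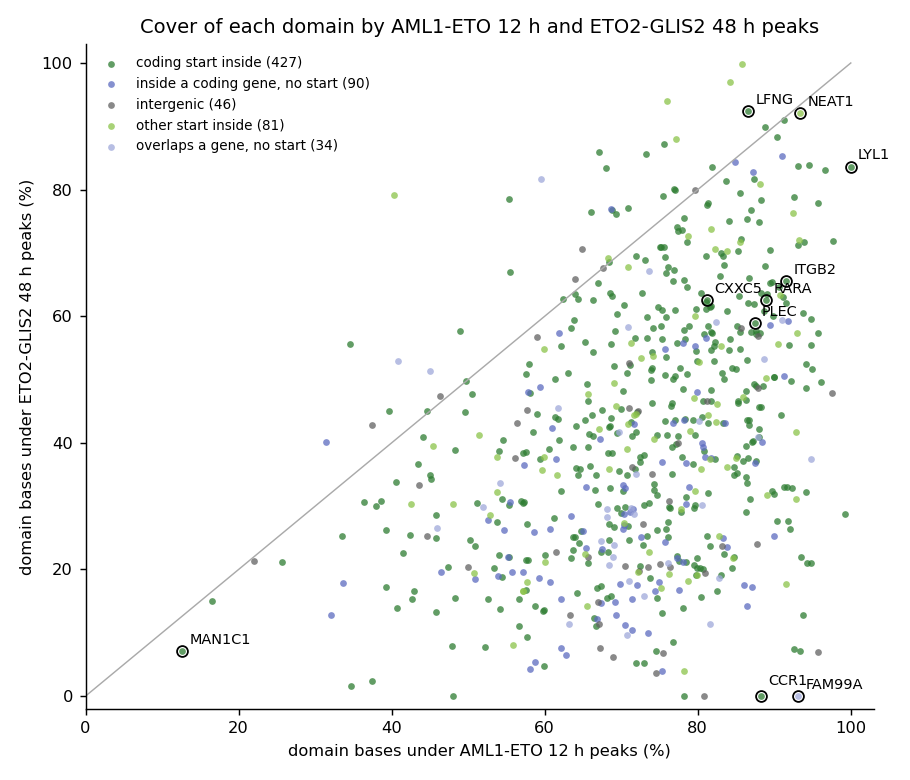
Each point is 1 of the 678 domains, with the percent of its bases under AML1-ETO 12 h peaks (x axis) and under ETO2-GLIS2 48 h peaks (y axis), coloured by where the domain lies relative to gene starts. The grey line marks equal cover; 39 domains lie above it, and FAM99A and CCR1 lie on the x axis at 93.1% and 88.3%.

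Runt matches were more frequent at the summits of both fusion proteins than beside them, and the GLIS core at the ETO2-GLIS2 summits. In 200 bp windows, a Runt match was present at 36.6% (32.9 to 40.3) of AML1-ETO 48 h summits and at 17.1% of windows 1 kb to either side. For the strongest AML1-ETO 12 h summit of each domain these were 41.4% and 17.3%, and for ETO2-GLIS2 48 h 30.9% (27.4 to 34.5) and 16.9%. Over all autosomal peaks of the lists, the share of summits with a Runt match was 24.8% for AML1-ETO 48 h and 21.9% for ETO2-GLIS2 48 h. In the strongest 10% of each list by −log10 q it was 36.3% and 25.2%, so the share in domains was close to that of strong AML1-ETO peaks of any width. The GLIS core was found at 12.9% (10.5 to 15.7) of the strongest ETO2-GLIS2 48 h summits and 5.57% of their flanks, and at 13.2% and 5.64% for 12 h. At the AML1-ETO 48 h summits it was found at 6.19% (4.50 to 8.28), no higher than the 7.23% of their flanks. Over all peaks it was 3.83% for AML1-ETO 48 h and 7.86% for ETO2-GLIS2 48 h, and in the strongest 10% 5.03% and 14.8%.

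E-box and AP-1 matches were raised at the summits of both fusion proteins. The E-box CAGCTG, a site of basic helix-loop-helix factors, was at 21.98% (18.9 to 25.3) of AML1-ETO 48 h summits against 12.1% of flanks, and at 22.6% against 12.5% for ETO2-GLIS2 48 h. AP-1 matches were at 9.88% (7.74 to 12.4) against 2.88%, and at 10.8% against 3.34%. For AP-1 the share at the AML1-ETO 48 h summit was 7.22% (6.31 to 8.21) in 4 to 8 kb peaks and 4.72% in all peaks. C/EBP matches were at 12.2% of AML1-ETO 48 h summits against 7.74% of flanks. The ETS pattern was rare, at 1.33% against 0.295%. Over all AML1-ETO 48 h summits the E-box was at 13.7%, C/EBP at 9.52% and ETS at 0.574%. In the strongest 10% of that list the E-box was at 19.1%, AP-1 at 6.96%, C/EBP at 10.1% and ETS at 2.25%, the last above the share in domains. The E-box was at 19.1% in 4 to 8 kb peaks too. A match describes the letters of the window and does not show that a factor bound there.

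The Runt share at the ETO2-GLIS2 summit was lower where it lay more than 200 bp from the AML1-ETO summit, though the intervals overlap. In the 325 domains with the strongest 48 h summits within 200 bp, windows overlap and the share was 37.2% (31.96 to 42.7) at the AML1-ETO and 36.3% (31.1 to 41.8) at the ETO2-GLIS2 summit. In the 197 domains with summits over 2 kb apart it was 34.5% (27.9 to 41.6) and 25.9% (19.9 to 32.6). The GLIS core in these 197 was at 5.58% (2.82 to 9.77) of AML1-ETO and 14.2% (9.66 to 19.9) of ETO2-GLIS2 summits.

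Along the whole domains, matches were denser than in the surroundings by amounts that differed between motifs. Runt matches occurred at 1.08 per kb in the domains and 1.01 per kb in flanks of the same total length, the GLIS core at 0.364 and 0.298 per kb, AP-1 at 0.197 and 0.167, and the rare ETS pattern at 0.0145 and 0.0100. All 678 domains held Runt matches, 11 in the median domain. GC content had a median of 54.2% in the domains and 51.1% in the flanks.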

How the data were processed

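Chromatin of doxycycline-treated U937 lines was precipitated with anti-HA beads, and 4 ChIP libraries and 4 inputs were sequenced. The submitters' processing notes name Bowtie2 2.2.9, SAMtools 1.7, MACS2 2.1.1.20160309 and deepTools. The authors deposited 1 MACS2 narrow peak list per ChIP library on hg19 (GRCh37), and each line gives a position, a score, a fold enrichment ratio at the summit, −log10 p-value and −log10 q-value, and the summit offset. The smallest deposited −log10 q was 1.30 to 1.31 in every list. MACS2 settings, duplicate removal and blacklists are not given in the sources used here. The deposited lists hold no read counts. The study lists reads and mapping rates of its libraries, which were not used here. It also describes fewer peaks than the deposited lists hold, and the selection between them is not given in the sources used here. For the 12 h samples the time in the sample titles was used, since the treatment text names 48 h throughout.

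Peaks on chromosomes 1 to 22 were used, and AML1-ETO 48 h peaks of 8000 bp or more were taken as domains. A peak was counted in a domain at an overlap of 1 bp. Peaks were ranked by −log10 q, and the strongest summit in a domain was that of highest fold enrichment. Genes and promoters (1 kb to either side of a start) came from GENCODE 44 lifted to GRCh37, and sequences from the GRCh37 genome. Motifs were searched on both strands in 200 bp windows at summits and 1 kb to either side. With 1 library per condition no test was made. The members and gene lists were chosen with earlier results of these data known. Named by rule were the 20 widest domains, the 5 on each side of the width limit, up to 5 domains per gene list by width (gene or 20 kb upstream), the 5 highest and 5 lowest in ETO2-GLIS2 48 h cover, and the 5 with most AML1-ETO 12 h peaks; some items that meet the rule are not reported here. Python 3.11.15, pandas 2.3.3, numpy 2.4.6, scipy 1.17.1, pysam 0.24.0 and matplotlib 3.10.9 were used, and the code was tested on simulated data.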

Additional observations from a re-analysis of the deposited data

How the results depend on the processing

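Of 59 values recomputed over 12 settings for 14 results, 34 stayed within the interval of the value reported (the number of domains: within 1.5 times) and 25 moved beyond it. For shares of bases this interval was worked out as for a share of domains. It served there only as a yardstick and does not measure the error of a share of bases. With a width limit of 10 kb there were 350 domains, 100% held an ETO2-GLIS2 48 h peak, and the medians of AML1-ETO 12 h and ETO2-GLIS2 48 h peaks per domain were 5 and 5. With 6 kb there were 1452 domains, 98.1% held an ETO2-GLIS2 12 h peak, the medians were 3 and 3, 72.7% held a promoter and 45.9% had the ETO2-GLIS2 48 h summit in one. Joining AML1-ETO 48 h peaks within 1 kb gave 2498 domains. Keeping in the other lists the peaks whose −log10 q reached 5, 98.4% held an ETO2-GLIS2 12 h peak, the medians were 3 and 3, and AML1-ETO 12 h covered 68.2% of bases. With as many strongest peaks as the shortest list holds, the AML1-ETO 12 h median was 2 and its cover 66.6%. The median distance from the AML1-ETO 48 h summit to the summit of highest fold enrichment, in place of the nearest (83 and 18 bp), was 248 bp for ETO2-GLIS2 48 h and 22 bp for AML1-ETO 12 h. Promoters of 3 kb were in 81.4% of domains and held 59.3% of ETO2-GLIS2 48 h summits; with coding starts only the values were 64.9% and 35.4%. Runt matches were at 24.8% of AML1-ETO 48 h summits in 100 bp windows and at 41.4% of the strongest AML1-ETO 12 h summits. Apart from these constructions the cause was not tested. No paired analysis was possible because each condition has 1 library and no result comes from a test. Read depth was not set against the number or width of peaks here.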

Other observations

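A few domains, named here after their values were seen, were packed with Runt matches. At least 10 matches within 1 kb were found in 13 domains, where the median domain had 3 in its densest 1 kb. SYT2 had 44, UNC5A 30, GSE1 29 and the narrower of the domains near SPSB1 25. UNC5A reached 8.26 matches per kb over its 9926 bp, with 75.3% AML1-ETO 12 h cover and 3.95% ETO2-GLIS2 48 h cover. ETO2-GLIS2 48 h cover was 18.1% at SYT2, 55.3% at GSE1 and 43.1% in a domain near SLC7A10 with 27 matches within 1 kb. Its median over all domains was 39.5%. The SPSB1 domain, at rank 5 of the AML1-ETO 48 h list by −log10 q with a fold enrichment of 123, had its summit inside the repeat printed above. It held 5 ETO2-GLIS2 48 h peaks with 23.7% cover, and no ETO2-GLIS2 12 h peak. The strongest ETO2-GLIS2 48 h summit, with a fold enrichment of 8.89, lay in the same repeat. At FAM99A the printed repeat holds no full Runt match. At least 6 matches in the 1 kb around the AML1-ETO 48 h summit were found in 6 domains (0.885%, 0.325 to 1.92), 1.38% (0.989 to 1.86) of 4 to 8 kb peaks and 0.457% of all peaks, and the intervals of the first 2 overlap. How reads in repeats were placed is not given in the sources used here, and its part in these peaks was not tested.

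Some domains lay near other domains. The share below has no background beside it, since the same count was not made for narrower peaks. Other peaks of the AML1-ETO 48 h list covered 42.2% of the 10 kb to either side of the domains. Of the 678, 253 (37.3%) had another within 50 kb and formed 100 clusters, the largest with 7 domains around NOL4L and C20orf203 on chromosome 20 (214612 bp, of which 58.2% was in domains). CEBPA and the region behind it held 4 domains in 57380 bp (84.7% in domains), and SKI, a corepressor of SMAD proteins, 4 in 81102 bp. In 25 cases the gap was under 1 kb and in the closest it was 182 bp. With peaks of the AML1-ETO 48 h list joined across gaps of 1 kb or less, 2498 regions would reach 8 kb. By chromosome there were from 5.12 domains per 100 Mb on chromosome 18 to 66.0 on chromosome 19, but per 1000 AML1-ETO 48 h peaks chromosome 19 had 7.12 and chromosome 8 10.1, and per 100 coding genes chromosome 19 had 2.64 and chromosome 15 7.58.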
